A study of Homo sapiens with 30 samples.

Results

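The BCL2 family genes described here are 10 genes that set whether a cell keeps its mitochondria intact or dies by apoptosis. They were taken by symbol, without use of any measured value, and all 10 are among the 23262 gene names of the time-course tables and the 23261 of the clone table. They are the guardians BCL2, BCL2L1 and MCL1, the BH3-only genes BCL2L11, BMF, BBC3, PMAIP1 and BID, and the effectors BAX and BAK1. RNA was sequenced from 30 samples of Rh30, an established alveolar rhabdomyosarcoma cell line that carries the PAX3-FOXO1 fusion, in 15 groups of 2 samples. In 1 line the fusion carries an FKBP degradation tag (PAX3-FOXO1-FKBP), and in the other FOXO1 does (FOXO1-FKBP). Each was kept in DMSO or given 500 nM dTAG, a compound that sends the tagged protein to the proteasome, for 2, 6, 24 or 72 h. The remaining groups are parental Rh30, with no tag, and the PAX3-FOXO1-FKBP clones 4, 10, 11 and 12, all labelled as DMSO-treated. Each clone is 1 clone of the construct, and the sources used here do not say which clone the time course used. Nothing says that the 2 samples of a group were separate cultures, so the spread that p-values rest on may be only technical.

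Guardians such as BCL2, BCL-XL (the protein of BCL2L1) and MCL1 hold the effectors BAX and BAK in check. BH3-only proteins bind the guardians, or the effectors themselves, and free the effectors to make pores in the outer mitochondrial membrane, after which cytochrome c leaks out and caspases are activated. BIM (BCL2L11) and BMF respond to loss of growth signals or attachment, PUMA (BBC3) and NOXA (PMAIP1) are induced by DNA damage, and BID links death receptors to mitochondria once caspase-8 has cut it. In rhabdomyosarcoma, PAX3-FOXO1 has been described as an activator of BCL2L1 and of PMAIP1, which makes mRNA of both sides of the family of interest when the fusion is removed. Much of the control of these proteins lies in their stability and binding, which RNA does not show.

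Each time-course column carries the shared name of the 2 samples of its condition and was taken to pool them. These columns held 25863153 to 30466522 estimated counts each, and a value there has no replicate error. The 10 clone and parental libraries held 17746684 to 26834005 counts each. Of 8 markers of skeletal muscle and rhabdomyosarcoma, MYF5 was listed at 0 in every column and MYF6 stayed at or below 3.58 normalised counts, while MYOD1, MYOG, DES, CHRNA1, CDH15 and FGFR4 were abundant throughout. The 2 h column of the PAX3-FOXO1-FKBP line stood apart: its 9 listed B-lineage markers summed to 1349 normalised counts, against 34.7 to 94.0 in the other 9 columns, and the leukocyte genes PTPRC and LCP1 were at 173 and 416 there. In the clone libraries the B-lineage sum was 2.19 to 10.4 CPM, read counts scaled to a fixed library total. Summed fibroblast markers, mostly COL3A1, were 17727 to 25644 normalised counts in the columns of the PAX3-FOXO1-FKBP line and 3229 to 4904 in those of the FOXO1-FKBP line. Epithelial markers summed to 152.2 to 268.6 and endothelial markers to 68.9 to 514.1 over the 10 columns. The pan-leukocyte list, which holds genes that Rh30 itself expresses, such as CORO1A, summed to 1278 to 3255.

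BMF and BCL2L11, BH3-only genes whose mRNA was highest at 24 h of dTAG, are shown with the 250 bases before their start sites, because E-boxes are the sites of myogenic factors and the FOXO core is the site of FOXO proteins. Sequences and coordinates are RefSeq's on GRCh38.p14, a later build than the hg19 of the files, and were matched by symbol. Windows were found for 9 of the 10 genes, some with more than 1 start, and MCL1 had none. Capitals mark the FOXO core GTAAACA in BCL2L11 and E-boxes (CANNTG, which includes the myogenic form CAGCTG) in BMF, searched on both strands. BCL2L11 lies at chr2:111120664-111120913, plus strand, and BMF at chr15:40108880-40109129 and chr15:40106967-40107216, minus strand.
BCL2L11: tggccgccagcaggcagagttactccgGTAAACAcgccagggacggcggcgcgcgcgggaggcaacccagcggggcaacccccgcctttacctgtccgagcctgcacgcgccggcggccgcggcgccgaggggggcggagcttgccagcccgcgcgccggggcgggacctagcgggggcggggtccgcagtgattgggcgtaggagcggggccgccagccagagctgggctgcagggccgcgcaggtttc
BMF first start: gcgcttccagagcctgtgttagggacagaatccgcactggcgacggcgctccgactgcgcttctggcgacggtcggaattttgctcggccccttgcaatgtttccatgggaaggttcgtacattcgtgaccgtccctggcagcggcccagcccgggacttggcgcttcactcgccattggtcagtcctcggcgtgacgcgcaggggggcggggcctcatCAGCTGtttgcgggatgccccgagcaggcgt
BMF second start: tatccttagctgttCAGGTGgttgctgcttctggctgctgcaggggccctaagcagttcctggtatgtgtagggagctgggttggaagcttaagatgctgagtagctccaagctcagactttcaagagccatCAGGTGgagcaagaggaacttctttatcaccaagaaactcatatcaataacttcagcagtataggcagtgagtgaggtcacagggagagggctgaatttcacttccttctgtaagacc
The FOXO core is in 2.98% of all 35116 RefSeq windows of the same length, CAGCTG in 14.0% and any E-box in 61.8%. Among the 10 genes only the BCL2L11 window held the FOXO core and only the first BMF window held CAGCTG, while the BAX window held 5 E-boxes. A match describes letters in a window and shows no binding.

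Levels between genes are compared per kilobase of the longest protein-coding transcript. In DMSO, the PAX3-FOXO1-FKBP line held 1845 normalised counts per kb of BAX, 1177 of MCL1, 897.8 of BCL2L1, 461.5 of BID, 394.4 of BAK1 and 383.2 of PMAIP1. BCL2L11 followed with 146.9, BMF with 120.8, BBC3 with 87.3 and BCL2 with 27.3. MCL1 and BCL2L1 thus made up nearly all mRNA of these 3 guardians, and BCL2 itself was the lowest of the 10. The order rests on 1 transcript length per gene, and neighbours such as BID, BAK1 and PMAIP1, or BCL2L11 and BMF, lie close together with no replicate error to separate them. In parental Rh30 the same scale gave 61.3 CPM per kb for BAX, 32.5 for MCL1, 20.2 for BCL2L1 and 0.895 for BCL2.

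The time course asks which of these mRNAs follow loss of the tagged fusion. BMF was the 1 gene of the 10 that passed the rule of size, at least 2-fold from DMSO at a mean normalised count of at least 50. In the PAX3-FOXO1-FKBP line BMF was at 609.6 normalised counts in DMSO and at 872, 1350, 1855 and 1382 after 2, 6, 24 and 72 h of dTAG. It was higher at every time, with its peak at 24 h. The log2 change was 0.51, 1.14, 1.60 and 1.18, a fold of 1.43, 2.21, 3.04 and 2.26, with counting errors of 0.067 to 0.075 on the log2 scale. BMF protein is a BH3-only sensor held at the actin-myosin cytoskeleton. In the FOXO1-FKBP line BMF was at 469.0 in DMSO and at 426.6, 483.5, 564.3 and 503.5 after dTAG, with no change above 0.27 on the log2 scale.

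**Figure D1:**
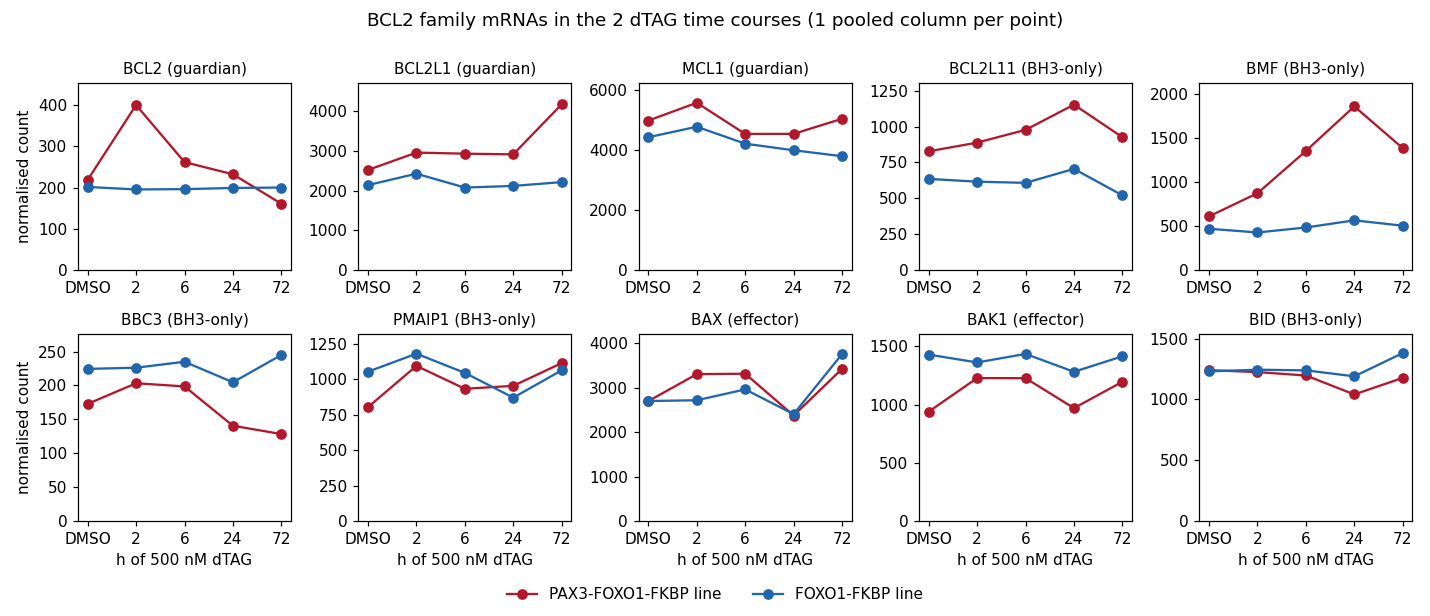
Normalised counts of the 10 genes (vertical axes from 0, scaled within each line) in DMSO and at 2, 6, 24 and 72 h of dTAG, 1 pooled column per point, red for the PAX3-FOXO1-FKBP line and blue for the FOXO1-FKBP line. BMF goes from 609.6 to 1855 at 24 h in red and stays between 426.6 and 564.3 in blue, and BCL2 has a single high point, 400.5, at 2 h in red.

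The other BH3-only genes differed less from DMSO. BCL2L11, whose product BIM binds every guardian, was at 827.7 normalised counts in DMSO and at 888.4, 977.1, 1153 and 925.8 at 2, 6, 24 and 72 h, with its highest value at 24 h as for BMF. PMAIP1, whose product NOXA binds MCL1, was at 803.9 and then at 1095, 933.3, 954.1 and 1115. All 4 dTAG columns of PMAIP1 were above DMSO, and correction of each column for transcript length and GC content took its log2 change from 0.44 to 0.27 at 2 h and from 0.47 to 0.29 at 72 h. BBC3, which encodes PUMA, was at 172.9 in DMSO, at 203.3 and 198.6 at 2 and 6 h, and at 140.6 and 128.4 at 24 and 72 h. BBC3 was thus above DMSO early and below it late, at log2 changes of 0.23, 0.20, -0.29 and -0.42, with counting errors of 0.15 to 0.17. BID was the flattest of the group, at 1240 in DMSO and 1225, 1197, 1041 and 1177 after dTAG.

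Among the guardians, BCL2L1 was at 2524 normalised counts in DMSO and at 2961, 2933, 2916 and 4178 at 2, 6, 24 and 72 h. The first 3 dTAG columns were alike, at log2 changes of 0.21 to 0.23, and the 72 h column stood above them at 0.73, a fold of 1.66 with a counting error of 0.036. MCL1, which encodes a short-lived guardian, was at 4986 in DMSO and at 5578, 4539, 4542 and 5045, so no column was more than 0.16 from DMSO on the log2 scale. BCL2 was at 219.0 in DMSO and at 400.5, 262.0, 232.6 and 161.1. Its high value belonged to the 2 h column alone, at a log2 change of 0.86 with a counting error of 0.12, and its 72 h value was the lowest, at -0.44. That 2 h column is the one with the B-lineage signal of 1349 normalised counts, and BCL2 is also an mRNA of B cells. What part of the BCL2 value comes with those transcripts was not tested.

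**Figure D2:**
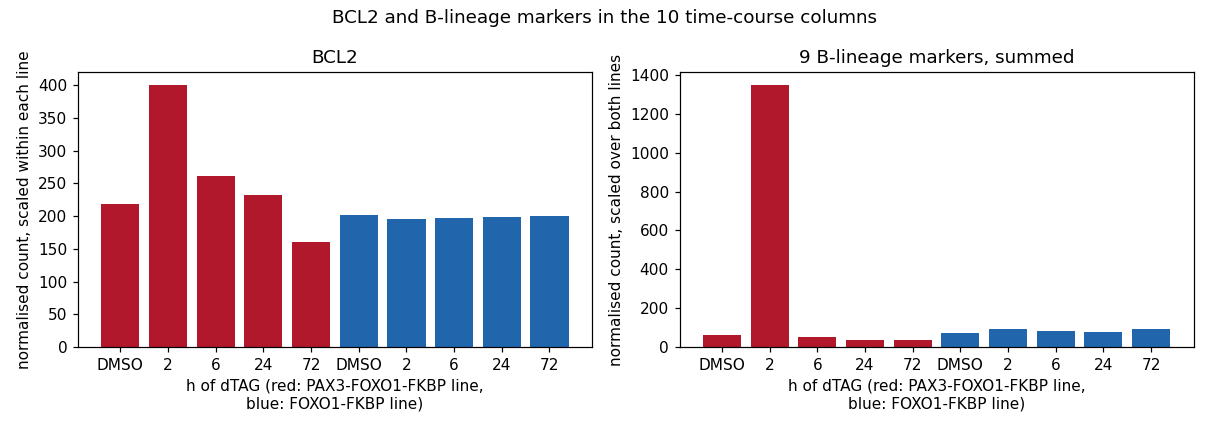
BCL2 (left) and the sum of 9 B-lineage markers (right) in each time-course column, as normalised counts on axes from 0. Both are highest in the 2 h column of the PAX3-FOXO1-FKBP line, at 400.5 and 1349.

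The effectors differed between columns without one direction over time. BAX was at 2699 normalised counts in DMSO and at 3306, 3314, 2374 and 3425 at 2, 6, 24 and 72 h. BAK1 was at 939.5 and then at 1227, 1226, 969.6 and 1195. Both were higher at 2, 6 and 72 h and close to or below DMSO at 24 h. The log2 change of BAX at 72 h, 0.34, was 0.17 after correction for length and GC content. A BAK1 pseudogene exists, so the counting may have divided BAK1 reads.

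None of the 10 slopes passed the trend test, in which edgeR fits each line with a slope against log2 of the hours of dTAG plus 1. Of all 14251 genes tested in the PAX3-FOXO1-FKBP line, 4.54% passed at an adjusted p under 0.05. At an unadjusted p under 0.05 there were 2 of the 10, BMF and BCL2L1, and DESeq2 called 1, BMF. The BMF slope was 0.23 per unit of log2 hours plus 1 (SE 0.056, adjusted p = 0.069), and alternatives gave it adjusted p values from 0.000852 with DESeq2 to 0.538 without the DMSO column. Without the 24 h column BMF and BCL2L1 passed (adjusted p = 0.0435 and 0.0169), and without the 72 h column BMF alone did (0.0186). The BCL2L1 slope was 0.096 (SE 0.029, adjusted p = 0.124), and it had an adjusted p of 0.940 without the 72 h column, so it rests on that column.

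By size, the counts of the 10 genes past 2-fold in the PAX3-FOXO1-FKBP line were 0 at 2 h and 1 at each of 6, 24 and 72 h, BMF each time. All genes passed at 0.649%, 1.84%, 3.11% and 6.48%. Across the 10 genes the median log2 change was 0.26, 0.23, 0.065 and 0.25 at the 4 times, beside -0.0042, 0.014, 0.0096 and -0.0030 over all 12329 genes. At 2 h, 9 of the 10 were above 0, against 49.1% of all genes, and at 72 h 7 were, against 49.6%. The 2 h column also held the B-lineage signal of 1349 normalised counts. Its part in the 2 h values of the 10 genes was not tested. Across genes the 2 h and 72 h changes of this line went with transcript length, at rho of -0.31 and -0.279, and genes are not independent replicates.

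In the FOXO1-FKBP line none of the 10 passed the edgeR trend test, the share of all 13885 genes was 0.00%, none of the 10 had an unadjusted p under 0.05, and DESeq2 called none of them. None passed the rule of size at 2, 6, 24 or 72 h, where 0.0751%, 0.0584%, 0.209% and 0.409% of all genes did. BAX had the largest change of the 10, at 2701 normalised counts in DMSO and 2718, 2962, 2406 and 3756 at 2, 6, 24 and 72 h. Its 72 h log2 change of 0.48 was 0.22 after correction for length and GC content, and over all genes the changes of that column had a rho of 0.495 with GC content and -0.511 with length. BCL2L11 and MCL1 were at -0.29 and -0.22 at 72 h, before any such correction. Their transcripts have 5231 and 3932 bases, at 45.7% and 45.1% GC, against 1358 bases and 58.9% for BAX. BCL2 lay between 195.8 and 201.9 in all 5 columns. Without the 24 h column BAX passed (adjusted p = 0.0113), in a fit that then called 1181 genes.

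The difference in slope between the lines passed edgeR's test for none of the 10, beside 2.02% of 14502 genes. The unadjusted p was under 0.05 for 2 of them, BCL2L1 and BMF, and DESeq2 called 0. The slope was steeper in the PAX3-FOXO1-FKBP line by 0.10 for BCL2L1 (SE 0.037, adjusted p = 0.258) and by 0.19 for BMF (SE 0.069, adjusted p = 0.272). Without the 24 h column BCL2L1 passed (adjusted p = 0.0451). In DMSO, with both lines scaled together, BAK1 was at 872.4 normalised counts in the PAX3-FOXO1-FKBP line and 1540 in the FOXO1-FKBP line, a log2 difference of -0.82. PMAIP1 and BBC3 were also lower there, at differences of -0.60 and -0.59. The other 7 lay between -0.22 and 0.17, and with 1 pooled column per line these differences have no replicate check.

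The rest of the death pathway was read from 85 genes in 10 lists, of which 72 were tested for a trend in the PAX3-FOXO1-FKBP line. In that line 1 rose, 1 fell and 70 did not pass, 2.78% called beside 4.54% of all genes, and in the FOXO1-FKBP line 0 were called. The gene that rose was TP63, a transcription factor that can act on BBC3 and PMAIP1, at 35.0 normalised counts in DMSO and log2 changes of -0.16, 0.34, 1.12 and 1.65 (adjusted p = 0.0206). The gene that fell was GDF15, a secreted stress-response protein, at 2141 in DMSO and log2 changes of 0.073, -0.36, -0.59 and -0.72 (adjusted p = 0.0310). For GDF15 the difference between the lines also passed (adjusted p = 0.0345), and for TP63 it did not (0.0533). In the FOXO1-FKBP line the 72 h change was 0.10 for GDF15 and -0.28 for TP63.

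In the 8 lists with no call, the 2 lowest p values named genes that did not pass. Among the apoptosome and executioners (12 tested, median 72 h log2 change 0.18), ENDOG, a mitochondrial nuclease, was at 0.66 at 72 h (adjusted p = 0.0731). FBXW7, part of a ubiquitin ligase that targets MCL1, was at 0.98 at 72 h (adjusted p = 0.0702), and DYNLL1, the light chain that binds BIM, at 0.34. The death receptors TNFRSF10B and FAS were at -0.87 and -0.81 at 72 h (adjusted p = 0.102 and 0.136), against 0.0076 and 0.0065 in the FOXO1-FKBP line. XIAP, a caspase inhibitor, was at 0.68 and its antagonist DIABLO at 0.39. Of the mitochondrial partners, MTCH2, the receptor of cleaved BID, was at 0.51 and VDAC2, which binds BAK, at 0.37. The effector-like BOK was at 0.33 and the read-through BCL2L2-PABPN1, which shares sequence with BCL2L2, at 0.83. BECN1 and BNIP3L, BH3 proteins of autophagy, were at 0.25 and 0.048, and the guardian BCL2L2 at 0.16.

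**Figure D3:**
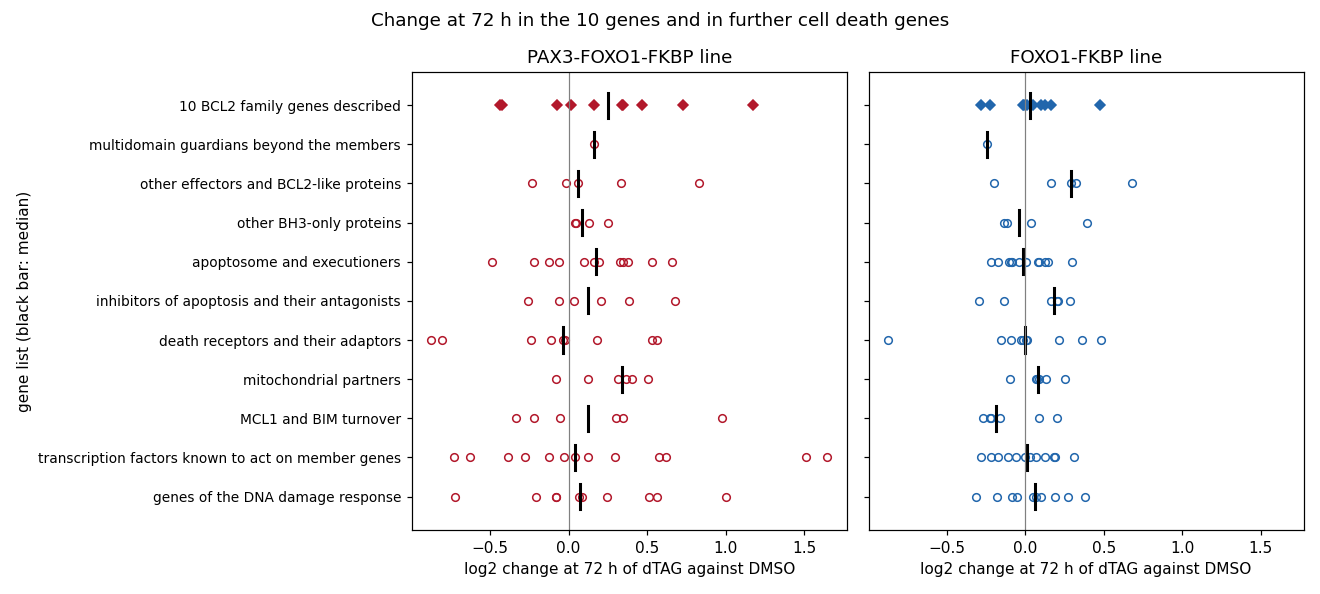
Log2 change at 72 h of dTAG against DMSO for the 10 genes (diamonds) and the tested genes of the 10 further lists (circles), left in the PAX3-FOXO1-FKBP line and right in the FOXO1-FKBP line, with a black bar at each median. BMF is the diamond at 1.18 on the left, and the 10 genes have a median of 0.25 there and 0.031 on the right.

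Genes whose time course was most like that of BMF, the gene of the 10 with the largest change at 72 h, were sought by Pearson r of log2 normalised counts over the 10 columns, among 11763 genes. They were P4HA2 (r = 0.977), MRC2 (0.968), GPRC5B (0.968), SLC24A3 (0.966) and LRP4 (0.962). P4HA2, a collagen prolyl hydroxylase, went from 1516 normalised counts in DMSO to 3370 at 24 h and 2663 at 72 h. Among the other 9 genes r was 0.89 for BCL2L11, -0.87 for BID and -0.82 for BBC3. The columns share a line in 2 sets of 5, so these r describe patterns only.

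The clones ask how far lines with the same construct, none given dTAG, differ from parental Rh30 and from each other. Shares of called genes were high in every clone comparison, and changes across genes went with GC content, at rho of 0.607 for the mean of the clones and 0.461 to 0.588 for single clones. Between the 2 libraries of a clone, differences went with transcript length at a rho of -0.58 in clone 4, -0.395 in clone 10 and -0.254 in clone 11, and at -0.053 in clone 12, against -0.0568 in parental Rh30. Their rho with GC content was 0.147, -0.0169, 0.571 and -0.188 in clones 4, 10, 11 and 12, and -0.00571 in parental Rh30. Values with a per-library offset for length and GC content, chosen after seeing the data, are therefore given wherever they change a call or move a value by over 1.5 times. The 4 comparisons share the 2 parental libraries. The 2 libraries of a group were not equally alike in all groups. The chi-square per gene between them, a scatter scaled by counting, was 1.84 in parental Rh30. It was 51.3, 20.1, 30.1 and 14.0 in clones 4, 10, 11 and 12. In the tests the 5 groups share 1 estimate of the spread of each gene.

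The mean of the 4 clones differed from parental Rh30 in 7 of the 10 genes by edgeR's quasi-likelihood test, 6 higher and 1 lower, beside 55.9% of 14175 genes tested. With the offsets the call held for 4, BCL2L1, BAK1, BID and BAX, beside 47.7% of 12587 genes. The median log2 change of the 10 was 0.53, and 0.044 over all genes. With the offsets these medians were 0.20 and 0.057. Here and below, the SE and p-values of the mean rest on scatter between the libraries of a group. They leave out the spread between the 4 clones. Without the second parental library 3 of the 10 were called, BCL2L1, BAK1 and PMAIP1, and BAX and BID missed the threshold at adjusted p = 0.0504 and 0.105.

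BCL2L1, which encodes BCL-XL, was at 51.7 and 53.8 CPM in the parental libraries, 105.3 and 114.6 for clone 4, 128.9 and 162.9 for clone 10, 47.8 and 69.7 for clone 11, and 113.1 and 140.2 for clone 12. All libraries of clones 4, 10 and 12 were above both parental ones, and clone 11 lay on either side of them. Group means were 52.8 ± 1.51 (SD, n = 2) in parental cells, 145.9 ± 24.1 (n = 2) in clone 10 and 58.8 ± 15.5 (n = 2) in clone 11. The mean of the clones was higher by 0.99 on the log2 scale (SE 0.16, adjusted p = 0.00046), or by 0.57 with the offsets (SE 0.12, adjusted p = 0.00387). The call held in clones 4, 10 and 12 with and without the offsets. In clone 11 the log2 difference was 0.15, or -0.32 with the offsets, and did not pass.

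BAK1 was at 38.0 and 37.9 CPM in the parental libraries, 78.4 and 85.0 for clone 4, 56.9 and 72.2 for clone 10, 86.1 and 94.6 for clone 11, and 78.0 and 80.4 for clone 12. All 8 clone libraries were above the parental ones. The log2 difference for the mean was 1.05 (SE 0.12, adjusted p = 7.06e-05), or 0.57 with the offsets (SE 0.084, adjusted p = 0.000455), and BAK1 was called in all 4 clones in both fits. BAX was at 83.7 and 82.9 CPM in parental cells, 97.4 and 136.4 for clone 4, 96.4 and 120.7 for clone 10, 145.2 and 157.5 for clone 11, and 127.4 and 137.2 for clone 12. Every clone library was again above the parental ones, by 0.60 on the log2 scale for the mean (SE 0.14, adjusted p = 0.00382). With the offsets that difference was 0.19 (SE 0.070, adjusted p = 0.0415), and the calls of BAX in clones 4 and 12 were lost (adjusted p = 0.0598 and 0.190). BID was at 38.2 and 34.1 CPM in parental cells and at 43.9 to 68.6 in the 8 clone libraries, all above them. Its mean log2 difference was 0.62 (SE 0.17, adjusted p = 0.00852), or 0.49 with the offsets. By edgeR's test BID was called in clones 4, 10 and 11 in both fits. Single left-out libraries took its log2 difference there as low as 0.38, 0.38 and 0.46 and removed the call. Clone 12 was not called, at 0.43 (adjusted p = 0.0948), or 0.27 with the offsets (adjusted p = 0.227).

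**Figure D4:**
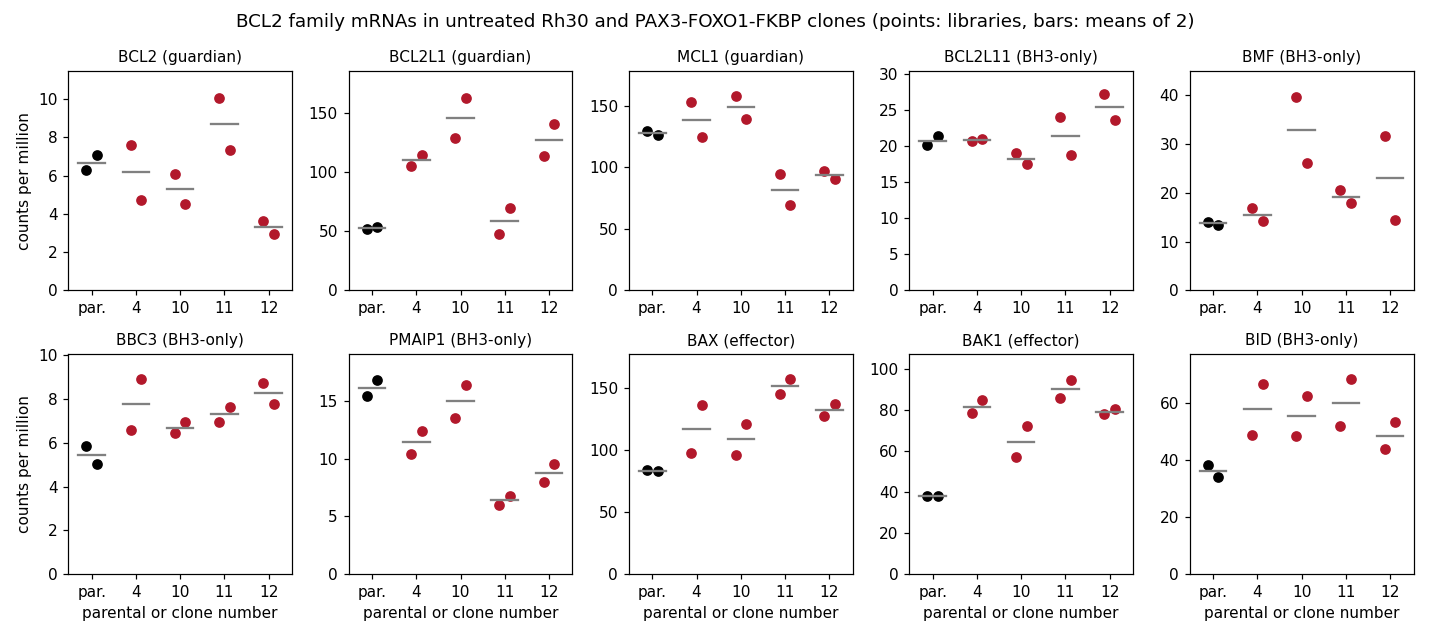
CPM of the 10 genes (vertical axes from 0) in parental Rh30 (black) and clones 4, 10, 11 and 12 (red), 2 libraries per group with a grey bar at their mean. BAK1 and BAX lie above the parental points in all 8 clone libraries, while BCL2L1 is near them in clone 11 and MCL1 is below them in clones 11 and 12.

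The guardians MCL1 and BCL2 differed between clones rather than in one direction. MCL1 was at 129.8 and 126.1 CPM in the parental libraries, 153.1 and 124.5 for clone 4, 157.8 and 139.4 for clone 10, 94.6 and 69.2 for clone 11, and 96.8 and 90.9 for clone 12. It was lower in clone 11 (log2 difference -0.64, SE 0.17, adjusted p = 0.00769) and in clone 12 (-0.45, SE 0.16, adjusted p = 0.0395). With the offsets the clone 11 call held at -0.38, that of clone 12 did not (-0.23, adjusted p = 0.116), nor did it hold without either parental or either clone 12 library (adjusted p = 0.0725 to 0.153), and clone 10 passed as higher (0.35, adjusted p = 0.0243). BCL2 was at 6.29 and 7.07 CPM in parental cells, 7.62 and 4.71 for clone 4, 6.11 and 4.54 for clone 10, 10.1 and 7.35 for clone 11, and 3.65 and 2.95 for clone 12. Clone 12 was lower, at a log2 difference of -1.02 (SE 0.28, adjusted p = 0.0112) or -0.64 with the offsets (adjusted p = 0.0286), and it missed the threshold without the second parental or the second clone 12 library (adjusted p = 0.0656 and 0.0681). Clone 11 was higher only with the offsets (0.82, adjusted p = 0.00738).

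Of the BH3-only genes, BMF was at 14.1 and 13.5 CPM in the parental libraries, 16.9 and 14.1 for clone 4, 39.6 and 26.1 for clone 10, 20.5 and 17.9 for clone 11, and 31.6 and 14.4 for clone 12. Clone 10 was higher by 1.26 on the log2 scale (SE 0.31, adjusted p = 0.00612), or 0.83 with the offsets (adjusted p = 0.0312), and the call was lost without the first clone 10 library (0.92, adjusted p = 0.0604). The 2 libraries of clone 10 stood apart in the sum of the 5 fibroblast markers. It was 1024 and 1056 CPM there and 27.7 to 144.2 CPM in the other 8 libraries. COL3A1 made up most of that sum, at 958.3 and 993.0 CPM, and the fibroblast genes DCN and LUM were at or below 0.365 CPM in clone 10. COL1A1 was at 55.9 and 55.8 CPM in clone 10 and higher in clone 12, at 122.9 and 92.6. PDGFRA was at 9.69 and 6.73 CPM in clone 10 and at 14.1 and 14.2 in parental cells. The part of these transcripts in the clone 10 values was not tested. For the mean of the clones BMF was higher by 0.66 (SE 0.25, adjusted p = 0.0438), a call that the offsets removed (0.38, adjusted p = 0.194) and that 8 of the 10 single left-out libraries removed as well (adjusted p up to 0.191). PMAIP1 was at 15.5 and 16.8 CPM in parental cells, 10.4 and 12.4 for clone 4, 13.5 and 16.4 for clone 10, 6.01 and 6.73 for clone 11, and 7.98 and 9.54 for clone 12. In clone 11 it was lower, at a log2 difference of -1.34 (SE 0.19, adjusted p = 0.000292), or -0.81 with the offsets (adjusted p = 0.00308).

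The direction of PMAIP1 in clones 4 and 10 depended on the scaling. For the mean it was -0.71 (SE 0.14, adjusted p = 0.00126), or -0.052 with the offsets (adjusted p = 0.744). Clone 4 went from -0.50, a called difference, to 0.17, and clone 10 from -0.11, not called, to a called 0.78 (adjusted p = 0.00227). Clone 12 was lower at -0.88 (adjusted p = 0.00251), and with the offsets it was at -0.34 and no longer called (adjusted p = 0.101). BBC3 was at 5.84 and 5.02 CPM in parental cells and at 6.44 to 8.95 in the clone libraries. Its mean log2 difference was 0.46 (SE 0.17, adjusted p = 0.0336) and turned to -0.21 with the offsets (adjusted p = 0.206), under which no single clone was called, and 8 of the 10 single left-out libraries removed the call (adjusted p up to 0.287). BCL2L11 was at 20.1 and 21.4 CPM in parental cells and at 17.5 to 27.2 in the clones, and it was not called in any clone. With the offsets it was higher in clone 11 (0.36, adjusted p = 0.0465) and clone 12 (0.54, adjusted p = 0.00617).

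**Figure D5:**
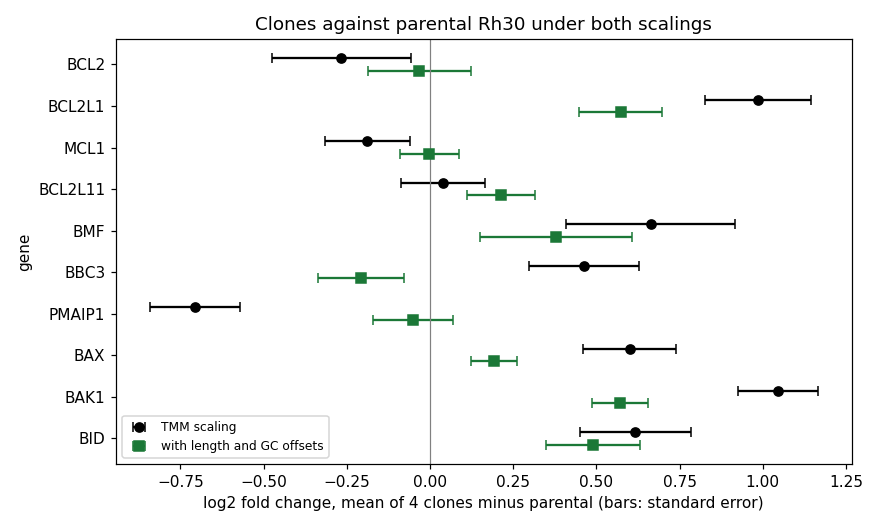
Log2 fold change of the mean of the 4 clones against parental Rh30 for each of the 10 genes, with TMM scaling (black circles) and with length and GC offsets (green squares), bars showing standard errors. BCL2L1, BAK1, BAX and BID stay above 0 in both, BBC3 goes from 0.46 to -0.21 and PMAIP1 from -0.71 to -0.052.

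By clone, 5 of the 10 genes were called in clone 4 (4 higher and 1 lower), beside 47.4% of all genes tested. With the offsets 3 of these held and no other was called, beside 46.7%. In clone 10 there were 4, all higher, beside 52.0%, and with the offsets these and 2 more, beside 47.8%. In clone 11 there were 5 (3 higher and 2 lower), beside 51.6%, and with the offsets these and 2 more, beside 41.9%. In clone 12 there were 7 (4 higher and 3 lower), beside 52.6%, and with the offsets 4, of which 3 were among the 7, beside 47.8%. In clones 4, 10 and 11 the counts without the offsets are near the shares of all genes. Clone 4 had 2 calls without either parental library and 3 without its own second library, and clone 12 had 3 without the second parental library and 4 without its own second. The 4 clones differed from each other in 5 of the 10, BCL2, BCL2L1, MCL1, BMF and PMAIP1, beside 63.5% of all genes, and with the offsets also in BCL2L11 (adjusted p = 0.00403) and BAK1 (0.0243), beside 73.2%.

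Of the 85 further genes 73 were tested in the clones, and the mean of the clones was higher in 24 and lower in 16, or in 23 and 20 with the offsets. These are 54.8% and 58.9% of the 73, beside 55.9% and 47.7% of all genes. The clones differed among themselves in 51 of the 73, or 69.9%, beside 63.5%. Without the offsets the share called against parental Rh30 is near that of all genes. Among the death receptors and adaptors (10 tested, 5 higher and 2 lower in both fits), TRADD and TNFRSF1A, the adaptor and receptor of TNF, were higher by 1.53 and 0.87 on the log2 scale, or 0.92 and 0.43 with the offsets. FADD was higher by 0.71 and CFLAR, an inhibitor of caspase-8, was at -0.68, which the offsets took to 0.23 and to -0.18, the latter no longer called (adjusted p = 0.194). With the offsets FADD was at 0.63 in clone 4 and at 0.011, 0.11 and 0.16 in clones 10, 11 and 12. TNFRSF1A was then at 0.69, 0.27, 0.036 and 0.73 in clones 4, 10, 11 and 12. Of 12 apoptosome genes and executioners 3 were higher and 1 lower, or 4 and 3 with the offsets. ENDOG was at 1.12 (0.50 with the offsets), CASP9, the initiator caspase, at 0.62 (0.41) and PARP1 at 0.34. APAF1, the scaffold of the apoptosome, was at -1.02 (-0.54). The clones did not share the direction of APAF1, at -0.22, 0.16, -1.03 and -1.07 with the offsets in clones 4, 10, 11 and 12.

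Of 6 inhibitors of apoptosis and their antagonists 3 were higher and 2 lower, and with the offsets XIAP alone was called. XIAP was at -1.07 (-0.30 with the offsets), BIRC2 at -0.75 (-0.035, not called), the antagonist HTRA2 at 0.70 (0.19, not called) and DIABLO at 0.31 (-0.088, not called). The clones did not share the direction of XIAP. With the offsets it was at -0.73, -0.96, 0.48 and 0.022 in clones 4, 10, 11 and 12. Of 10 genes of the DNA damage response 2 were higher and 4 lower, as many as with the offsets. CDKN1A, the cell-cycle inhibitor, was at 1.13 (0.67), MDM2, a ubiquitin ligase, at -1.06 (-0.43) and RRM2B, a ribonucleotide reductase subunit, at -0.87 (-0.0084, not called). With the offsets CDKN1A was at 1.19, 0.73, 0.099 and 0.65 in clones 4, 10, 11 and 12. Among the transcription factors 5 of 13 were higher and 1 lower, or 3 and 3 with the offsets, with DDIT3 at 0.81 (0.78), E2F1 at 0.41 (-0.14, not called) and TP63 at -1.90 (-1.51).

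The mitochondrial partners had 1 of 6 higher and 1 lower, or 4 and 1 with the offsets: BCAP31, a caspase-8 substrate of the endoplasmic reticulum, at 1.20 (0.71 with the offsets) and VDAC2 at -0.48. With the offsets BCAP31 was at -0.064, 0.20, 1.17 and 1.53 in clones 4, 10, 11 and 12. VDAC2 was then at -0.57, -0.67, 0.089 and -0.39 in the same order. In MCL1 and BIM turnover 1 of 6 was higher and 2 lower, or 3 and 1 with the offsets: DYNLL2, the light chain that binds BMF, was at 0.72, FBXW7 at -0.58 and USP9X, which stabilises MCL1, at -0.36, turning to 0.34 with the offsets (adjusted p = 0.00258). Of 4 further BH3-only genes 2 were higher and 1 lower, or 1 and 2 with the offsets: BAD at 0.64 (0.051, not called), BECN1 at 0.27 and BNIP3L at -0.87 (-0.23). With the offsets BNIP3L was at -0.98 in clone 4 and at 0.068, -0.096 and 0.073 in clones 10, 11 and 12. BECN1 was then at 0.091, 0.78, -0.020 and 0.52 in clones 4, 10, 11 and 12. Of 5 other BCL2-like genes 2 were higher and 2 lower, or 1 and 3 with the offsets, with BCL2L13 at 0.82, BCL2L12 at 0.39 (-0.10, not called), BCL2L15 at -1.85 (SE 0.53) and BCL2L2-PABPN1 at -1.37. BCL2L15 was scarce, at 10.9 normalised counts in DMSO in the PAX3-FOXO1-FKBP line. With the offsets edgeR's test called it in no single clone (adjusted p = 0.101 to 0.194). BCL2L2, the remaining guardian tested, was at 0.24 (adjusted p = 0.0668), or 0.019 with the offsets (adjusted p = 0.850), and was called in neither fit.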

How the data were processed

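RNA sequencing of 30 Rh30 samples was read from 3 tables. Trimmomatic 0.32, Cuffdiff 2.1.1, Bowtie2 and the build hg19 stand in the submitters' processing notes, with no role for each in the sources used here. Values of the time course are estimated counts that the authors deposited, with 1 pooled column per condition per the file headers (73.6% of values not whole), and were rounded for tests. The clone table holds counts deposited by the authors, 1 column per library. The clone 12 columns are numbered differently from its sample titles and were used as that group without replicate numbers. Totals, 17746684 to 30466522, set the counting error given. Left out were 4 rows with duplicated names and, as failed estimates, 41 genes of the PAX3-FOXO1-FKBP and 9 of the FOXO1-FKBP table.

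Time-course log2 changes used TMM scaling and a prior count of 2. Trends were edgeR 4.0.16 (R 4.3.3) quasi-likelihood slopes with 3 residual degrees of freedom per line and 6 for the difference, so p-values measure scatter of pooled columns round a line. Clones were compared with edgeR quasi-likelihood F tests over 10 libraries in 5 groups (TMM, filterByExpr minimum count 10, 5 residual degrees of freedom). A gene was called at p under 0.05 after Benjamini-Hochberg adjustment over the whole table. Counting errors cover counting alone. Alternatives were library totals, DESeq2 1.42.0, no filter, other prior counts, the rank of the time, left-out columns or libraries, a replicate block and length and GC corrections (GENCODE v29, by symbol, 88.8% to 90.0% of genes). The scripts were tested on simulated data.

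The 10 genes, the 10 further lists (multidomain guardians, other effectors and BCL2-like proteins, other BH3-only proteins, apoptosome and executioners, inhibitors of apoptosis, death receptors, mitochondrial partners, MCL1 and BIM turnover, transcription factors and genes of the DNA damage response) and the marker lists were chosen with earlier results of these data known. All 10 genes were named, and of each list up to 4 called genes of lowest p, or the 2 of lowest p where none passed; 3 of the genes so chosen are not reported here.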

Additional observations from a re-analysis of the deposited data

Results flagged for a closer look

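The difference from parental Rh30 was not the same in the 4 clones for 5 of the 10 genes by edgeR's quasi-likelihood test over the 4 clone means. Each is 1 clone, so the tag and clonal origin cannot be told apart. The adjusted p was 0.00118 for BCL2L1, whose clone means ran from 58.8 CPM in clone 11 to 145.9 in clone 10. It was 0.00143 for PMAIP1, from 6.37 in clone 11 to 15.0 in clone 10, and 0.00264 for MCL1, from 81.9 in clone 11 to 148.6 in clone 10. For BCL2 it was 0.00885, from 3.30 in clone 12 to 8.71 in clone 11, and for BMF 0.0420, from 15.5 in clone 4 to 32.8 in clone 10. Leaving out 1 library at a time, the adjusted p stayed at or under 0.00963 for BCL2L1, 0.00877 for PMAIP1 and 0.0113 for MCL1. It reached 0.0503 for BCL2 without the second clone 12 library. The BMF call was lost without 7 of the 10 libraries, both of parental cells and of clones 4 and 11 and the first of clone 10, with the highest value, 0.247, without the last. Of all genes 63.5% passed the same test, and library differences in transcript length and GC content were present within clones. Their part was not tested beyond the offsets. Under these all 5 still passed, BMF narrowly (adjusted p = 0.0492), beside 73.2% of all genes.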

How the results depend on the processing

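In the PAX3-FOXO1-FKBP trend 0 of the 10 genes were called, and 1 with DESeq2 and 0 to 2 without single columns (2 without 24 h, 1 without 72 h). In the FOXO1-FKBP line and in the difference it was 0, and 1 without the 24 h column. Calls over all genes followed: 647, and 1046 with DESeq2, 120 without DMSO, 1401 without 24 h and 140 without 72 h; 0 in the FOXO1-FKBP line, 1181 without 24 h; 293 for the difference, 553 with DESeq2, and 18, 90, 164, 683 and 50 without DMSO, 2, 6, 24 and 72 h. The cause was not tested. By size the counts of the 10 were the same under every alternative; over all genes in the FOXO1-FKBP line 25 became 14 at 24 h and 49 became 30 at 72 h after correction for length and GC content.

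With single libraries left out, 2 to 5 genes were called in clone 4, 3 to 5 in clone 10, 4 to 5 in clone 11, 3 to 7 in clone 12, 3 to 6 for the mean and 4 to 6 among clones; a lone library was assumed to vary like the other groups. Over all genes, calls went from 6723 to 3962 and 3923 in clone 4 without the first and second parental library, from 7374 to 4658 and 4586 in clone 10, from 7316 to 4734 and 4738 in clone 11, from 7453 to 4819 and 4758 in clone 12, and from 7926 to 4714 and 4686 for the mean. With length and GC offsets the counts were 3, 6, 7 and 4 in clones 4, 10, 11 and 12, 4 for the mean and 7 among clones, and 4 values called in either fit changed sign: PMAIP1 in clone 4 (0.17, adjusted p = 0.403) and clone 10 (0.78, adjusted p = 0.00227), BBC3 in clone 12 (-0.11, adjusted p = 0.609) and for the mean (-0.21, adjusted p = 0.206). So did 5 uncalled values, BBC3 in clones 4, 10 and 11, BMF in clone 4 and BCL2L1 in clone 11. Numbers shared by parental cells and clones 4, 10 and 11 were not taken to pair the samples. Correlations of deviations were 0.00908 to 0.0464 between parental cells and a clone, and 0.172 to 0.547 between clones. The 2 parental libraries differed little, at a chi-square per gene of 1.84, so their correlations cannot show whether samples are paired. The replicate block called 5, 4, 5 and 6 genes in clones 4, 10, 11 and the mean. No paired analysis was possible for clone 12. Without clone 12, a choice made after seeing the data, the counts were 4, 3, 5 and 6. BCL2 and BBC3, the genes with the fewest counts, had the largest counting errors, 0.12 to 0.17 on the log2 scale.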

Other observations

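A gene and a ratio not compared above, chosen after their values were seen, are given as descriptions. BCL6, a transcriptional repressor, was in the list of transcription factors but not among the genes that list named. In the PAX3-FOXO1-FKBP line it was at 44.5 normalised counts in DMSO, with log2 changes of 1.80, 1.62, 1.82 and 1.51 at 2, 6, 24 and 72 h. A slope over time did not pass (adjusted p = 0.492). BCL6 is also a gene of B cells, whose 9 listed markers summed to 1349 normalised counts in the 2 h column and to 34.7 to 94.0 in the others, and their part in its 2 h value was not tested. In the FOXO1-FKBP line it was at 5.71 in DMSO.

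The balance of the guardians BCL2L1 and MCL1, as a log2 ratio of their counts, was -1.33 and -1.23 in the parental libraries. It was higher in all 8 clone libraries, from -0.98 in the first library of clone 11 to 0.63 in the second of clone 12. Within clone 11 the libraries were at -0.98 and 0.010. In the PAX3-FOXO1-FKBP line the ratio was -0.98 in DMSO and -0.91, -0.63, -0.64 and -0.27 at 2, 6, 24 and 72 h, and in the FOXO1-FKBP line -1.05 and then -0.98, -1.02, -0.91 and -0.78. The ratio compares raw counts of transcripts of different length and GC content (56.9% for BCL2L1 and 45.1% for MCL1) and was not tested. It carries no offsets. With the offsets, clone 11 differed from parental Rh30 by -0.32 for BCL2L1 and -0.38 for MCL1 on the log2 scale. Its higher ratio thus depends on whether length and GC content are corrected for. Clones 4, 10 and 12 were then at 0.71, 1.07 and 0.83 for BCL2L1 and at 0.25, 0.35 and -0.23 for MCL1.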
